A study of Mus musculus with 4 samples.

Results

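The immediate early genes examined here were 10 genes in all, chosen by name: *Fos*, *Fosb*, *Fosl1* and *Fosl2* of the FOS family, *Jun* and *Junb* of the JUN family, *Egr1* and *Egr3* of the early growth response family, the synaptic gene *Arc*, and the nuclear receptor gene *Nr4a1*. Every non-control probe that carried 1 of these names was taken, which gave 11 probes in 20 spots on each array, out of 39429 probes and 30028 gene names. *Fosl2* had 2 probes, each of the other genes had 1, and no further probe was found through RefSeq accessions. The rule itself uses gene names and no measured value, but the genes were picked with earlier results of these data known.

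Immediate early genes are transcribed within minutes of a stimulus and need no new protein for it, since the factors that switch them on are already in the cell and are activated by kinases. FOS and JUN proteins pair to form the transcription factor AP-1, and EGR and NR4A proteins bind DNA on their own, so these genes turn a short signal into a longer change in transcription. Neuronal firing, growth factors, injury and cytokines all induce them, and so can the handling and dissection of an animal, which is why their spread among control samples matters as much as their level in treated ones.

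The study asked what happens in the cochlea once its outer hair cells (OHCs), the sensory cells that amplify sound, have been removed. OHC-TRECK mice, called *Prestin*-*hDTR* in the paper, carry the human HB-EGF gene, the receptor of diphtheria toxin (DT), under the promoter of *Slc26a5* (prestin), and come from a single transgenic line on the C57BL/6J background. Mouse cells lacking the human receptor are largely insensitive to DT, so that the toxin removes the cells in which the promoter is active. The 4 groups, all aged 5 weeks, were untreated wild-type mice, wild-type mice taken 7 days after 50 μg/kg DT, untreated OHC-TRECK mice, and OHC-TRECK mice taken 7 days after the same dose. RNA from cochleae of 4 females and 4 males was pooled per group and hybridised to 1 single-colour Agilent array, so each group has 1 value and no replicate, no p-value could be computed, and each group's value stands for its pool. The arrays of the first 3 groups are called control arrays.

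All 4 arrays lay on 1 slide. Between 62.2% and 70.6% of probes were well above background on an array, as called by the scanner software, and no spot was saturated. Levels are given as normalized log2 signal, the log2 of a probe's intensity over the 75th percentile of its array, so that 0 is a bright probe and each unit is a doubling, and levels are compared between arrays and not between probes. Values on the 4 arrays are listed in the order wild-type without DT, wild-type with DT, OHC-TRECK without DT and OHC-TRECK with DT. A ± value on a log2 ratio is the measurement error that the software gives for the spots and does not cover the spread between mice. A gene was called higher or lower at 2-fold or more. A fold against a probe not well above background is a lower bound where that signal was raised to the lowest one called so. The OHC markers checked the labels, since the summed relative signal (intensity over the 75th percentile) of 7 such genes was 24.9, 23.0 and 25.0 on the control arrays and 5.73 on the DT-treated OHC-TRECK array. In bulk RNA of this kind, fewer cells of a type and less RNA per cell cannot be told apart.

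Of the 10 genes, 7 were well above background on all 4 arrays, *Junb* was so on both OHC-TRECK arrays only, and *Fosl1* and *Egr3* were so on no array. *Fos* rose in the DT-treated OHC-TRECK cochlea by more than 3-fold against each control array. *Egr1*, *Fosb* and *Fosl2* lay above all 3 control arrays without reaching 2-fold, *Jun* and *Arc* lay close to the controls, and *Nr4a1* lay below all 3. The plot of the levels shows these patterns gene by gene.

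**Figure D1:**
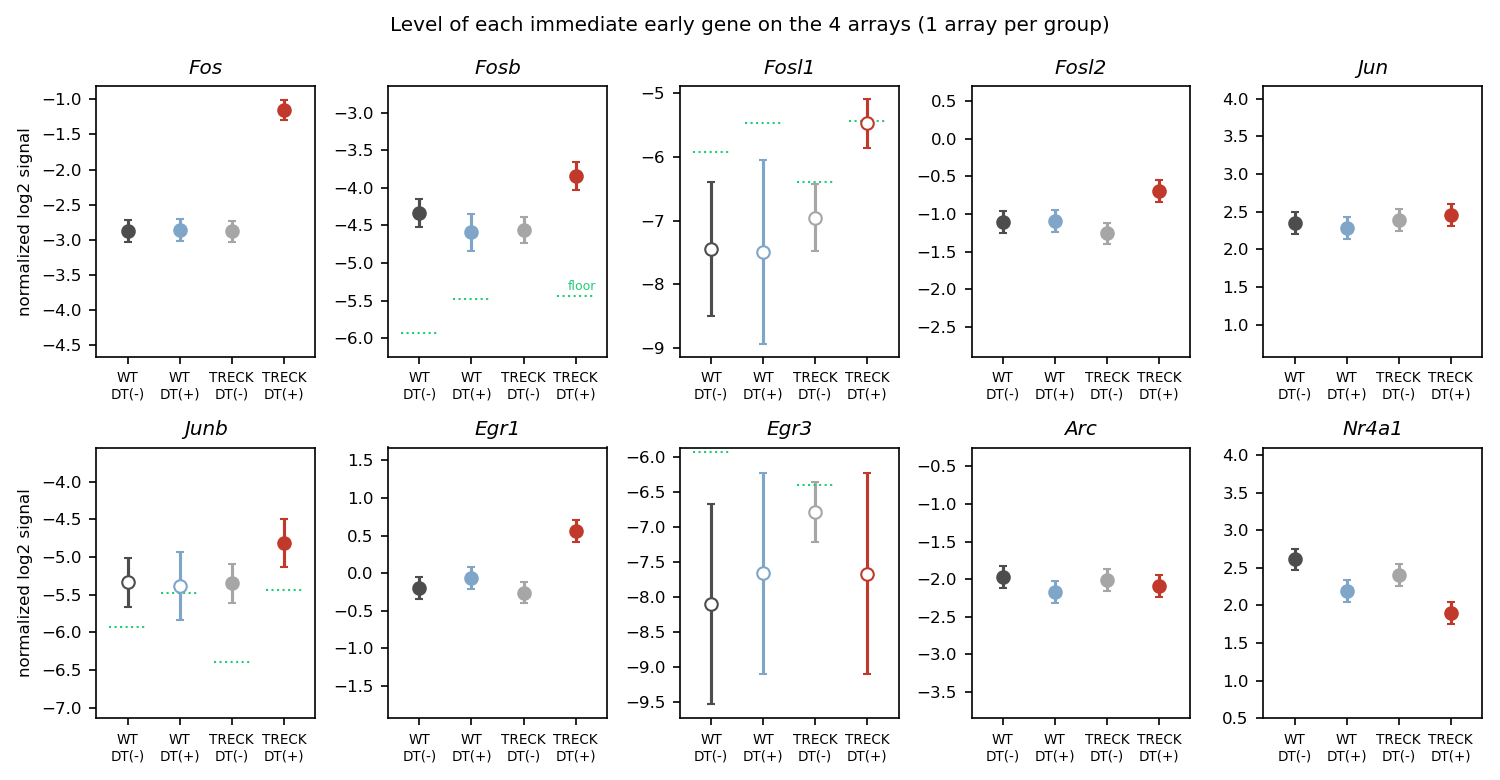
Normalized log2 signal (vertical axes, each panel with its own range) of the 10 genes on the 4 arrays, WT for wild-type and TRECK for OHC-TRECK, without (-) and with (+) DT. Bars are the measurement error of the software, open circles are signals not well above background, and green dotted lines are the floor of that array (the lowest signal that the software still called well above background), drawn where it falls in the panel. The 3 control arrays of *Fos* lie between -2.88 and -2.86 and the DT-treated OHC-TRECK array at -1.16.

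*Fos*, whose protein is the classic partner of JUN in AP-1, had a normalized log2 signal of -2.88 and -2.86 in wild-type cochleae without and with DT, and of -2.88 and -1.16 in OHC-TRECK cochleae without and with DT. The deposited intensities were 372, 436, 410 and 1400. The 3 control arrays were nearly level, with a range of 0.02 on the log2 scale or 1.02-fold, and the DT-treated OHC-TRECK array stood alone. The signal there was 3.31-fold that of untreated OHC-TRECK (log2 1.72 ± 0.21), 3.29-fold that of untreated wild-type (1.72 ± 0.21) and 3.25-fold that of DT-treated wild-type cochleae (1.70 ± 0.21). Of the 23688 probes well above background on all 4 arrays, 97.9% had a wider range over the control arrays than *Fos*, and 0.144% lay farther outside them on the DT-treated OHC-TRECK array.

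The *Fos* probe (chromosome 12, 86817900 to 86817959 in mm9) was printed 10 times on each array, which gives a view of the error of a spot. The 10 spots ran from -3.06 to -2.76 (SD 0.10) in wild-type cochleae without DT, from -3.06 to -2.52 (SD 0.15) in those with DT and from -3.02 to -2.77 (SD 0.070) in untreated OHC-TRECK cochleae. In DT-treated OHC-TRECK cochleae they ran from -1.31 to -1.05 (SD 0.099). No spot of the DT-treated OHC-TRECK array overlapped those of the control arrays, while the spots of the 3 control arrays overlapped each other. Spots of 1 array share 1 RNA pool and are not replicates of a condition.

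**Figure D2:**
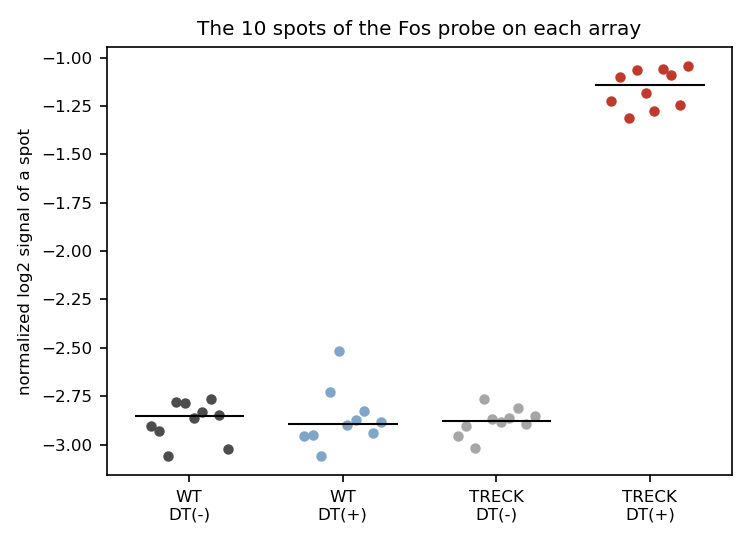
Normalized log2 signal of each of the 10 spots of the *Fos* probe on the 4 arrays, WT for wild-type and TRECK for OHC-TRECK, without (-) and with (+) DT. Lines are medians over the spots, and the spots of the DT-treated OHC-TRECK array (-1.31 to -1.05) lie above every spot of the 3 control arrays (-3.06 to -2.52).

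The other FOS family genes had smaller ratios. *Fosb*, an AP-1 subunit that is induced beside *Fos* in many tissues, had levels of -4.33, -4.59, -4.56 and -3.84 (chromosome 7, 19888168 to 19888227, minus strand). Its DT-treated OHC-TRECK level was 1.64-fold that of untreated OHC-TRECK (log2 0.72 ± 0.26), 1.40-fold that of untreated wild-type (0.49 ± 0.27) and 1.68-fold that of DT-treated wild-type cochleae (0.75 ± 0.31). The control arrays spanned 0.26 on the log2 scale, and untreated wild-type was the highest of them. *Fosl2*, which encodes FRA-2, had levels of -1.11, -1.09, -1.26 and -0.70 by its brighter probe (chromosome 5, 32460076 to 32460135). This was 1.48-fold, 1.33-fold and 1.31-fold against untreated OHC-TRECK, untreated wild-type and DT-treated wild-type cochleae, each with an error of 0.21 on the log2 scale, and the controls spanned 0.17. The other *Fosl2* probe (chromosome 5, 32455088 to 32455147) did not rise above background on any of the 4.

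*Fosl1*, which encodes FRA-1 and is often raised in wounded epithelia, did not pass the background call on any array (chromosome 19, 5455496 to 5455555). Its intensities were 15.6 ± 11.4, 17.5 ± 17.5, 24.3 ± 8.82 and 70.0 ± 18.7, ± the error of the software. The last value is the highest, and at a normalized log2 signal of -5.48 it stayed under the lowest signal called well above background on that array, -5.44, so no fold is given.

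The JUN genes had smaller ratios than *Fos* too. *Jun*, the main partner of the FOS proteins, was bright on every array, with levels of 2.35, 2.29, 2.39 and 2.45 (chromosome 4, 94716928 to 94716987, minus strand). The DT-treated OHC-TRECK array was the highest, but by only 0.06, 0.10 and 0.17 on the log2 scale against untreated OHC-TRECK, untreated wild-type and DT-treated wild-type cochleae, with an error of 0.20 on each, so the arrays did not differ beyond the measurement error. *Junb*, a JUN protein with weaker activity than JUN on many AP-1 sites, had levels of -5.34, -5.38, -5.35 and -4.81 (chromosome 8, 87501881 to 87501940, minus strand). It was well above background on the OHC-TRECK arrays only, where the DT-treated level was 1.45-fold the untreated one (log2 0.53 ± 0.41). Against the wild-type signals as measured, which were not well above background, it was 1.44-fold without DT (0.52 ± 0.46) and 1.48-fold with DT (0.57 ± 0.55). Its error is the widest among the genes with a ratio against untreated OHC-TRECK.

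*Egr1*, a zinc finger factor induced by growth factors and by neuronal activity, lay farthest from the mean of the control arrays after *Fos*, by 0.73 on the log2 scale. Its levels were -0.20, -0.06, -0.26 and 0.56 (chromosome 18, 35024395 to 35024454). The 3 control arrays spanned 0.20 and the DT-treated OHC-TRECK array lay 0.62 above the nearest of them. This was 1.76-fold the level of untreated OHC-TRECK (log2 0.82 ± 0.20), 1.69-fold that of untreated wild-type (0.76 ± 0.20) and 1.54-fold that of DT-treated wild-type cochleae (0.62 ± 0.20), and 2.12% of the 23688 probes lay farther outside their control arrays. *Egr3*, a related factor best known from muscle spindles and T cells, was under the background call on every array, with intensities of 9.98, 15.7, 27.5 and 15.4 (chromosome 14, 70479222 to 70479281).

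*Arc*, which organises the traffic of glutamate receptors at synapses and is read as a mark of neuronal activity, had levels of -1.98, -2.17, -2.01 and -2.09 (chromosome 15, 74499592 to 74499651, minus strand). The DT-treated OHC-TRECK value lay inside the range of the control arrays, which was 0.19. *Nr4a1* (NUR77), an orphan nuclear receptor that is induced in T cells and in macrophages and is needed for a subset of monocytes, was the one gene below all control arrays. Its levels were 2.61, 2.19, 2.41 and 1.90 (chromosome 15, 101105071 to 101105130). The DT-treated OHC-TRECK level was lower by 1.42-fold against untreated OHC-TRECK (log2 -0.50 ± 0.20), by 1.64-fold against untreated wild-type (-0.71 ± 0.20) and by 1.22-fold against DT-treated wild-type cochleae (-0.29 ± 0.20). Its control arrays also spread the most of the 7 genes measured on all 4 arrays, over 0.42 on the log2 scale or 1.34-fold, with untreated wild-type at the top and DT-treated wild-type at the bottom. The gap of 0.29 to the nearest control is therefore smaller than the range of the controls.

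Among the control arrays, none of the genes reached 2-fold in any pair. Between DT-treated and untreated wild-type cochleae, 0 of the 7 genes compared were called, beside 2.55% of all probes compared in that pair in either direction. Between untreated OHC-TRECK and untreated wild-type cochleae, 0 of 8 were called beside 3.33% of all probes, and between untreated OHC-TRECK and DT-treated wild-type cochleae 0 of 8 beside 2.64%. The median log2 ratio of the genes in the same pairs was -0.07, -0.05 and 0.03, beside -0.03, -0.01 and 0.01 over all probes compared. Over the 23688 probes well above background on all 4 arrays, the median range of the control arrays was 0.15 on the log2 scale or 1.11-fold, and 1.74% of these probes had a range of 2-fold or more. *Fos* (0.02) and *Jun* (0.10) had narrower control ranges than that median, whereas *Fosl2* (0.17), *Arc* (0.19), *Egr1* (0.20), *Fosb* (0.26) and *Nr4a1* (0.42) had wider ones, and 8.82% of the probes had a control range wider than that of *Nr4a1*. The order of the control arrays was not shared by the genes, since untreated wild-type was the highest for *Fosb*, *Arc* and *Nr4a1*, DT-treated wild-type for *Fos*, *Fosl2* and *Egr1*, and untreated OHC-TRECK for *Jun*. Time of dissection and handling are not given in the sources used here for single groups, and their part in these ranges was not tested.

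**Figure D3:**
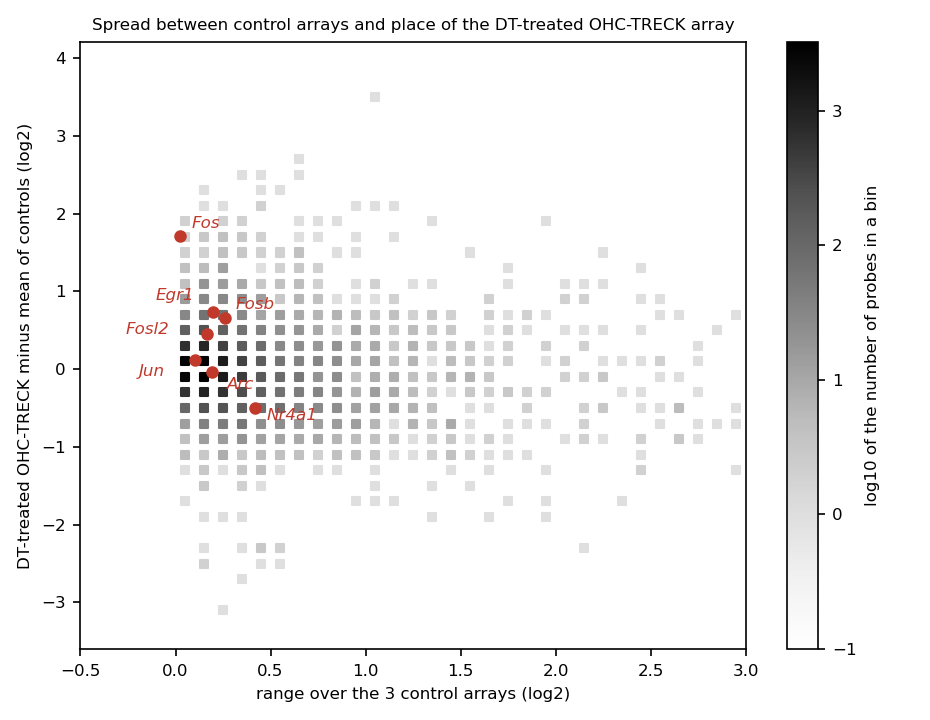
Range over the 3 control arrays (horizontal axis, log2) against the DT-treated OHC-TRECK signal minus the mean of the control arrays (vertical axis, log2) for the 23688 probes well above background on all 4 arrays, as grey bins whose shade is the log10 of the number of probes, with 7 of the immediate early genes in red. The horizontal axis ends at 3, which leaves out 8 probes. *Fos* combines a control range of 0.02 with a difference of 1.71, and *Nr4a1* has the widest control range of the 7, 0.42, with a difference of -0.50.

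Against the control arrays, *Fos* was the gene called in each comparison of the DT-treated OHC-TRECK array, which all share that array. It was 1 of 8 genes compared with untreated OHC-TRECK, where 2.49% of all probes compared were higher by 2-fold or more, 1 of 8 compared with untreated wild-type, where 1.96% were, and 1 of 8 compared with DT-treated wild-type, where 1.41% were. Higher by 2-fold or more against each of the 3 control arrays were 1.08% of probes, and lower were 0.259%, which included none of the immediate early genes (a count of 0). The median log2 ratio of the 8 genes was 0.55, 0.45 and 0.48 against untreated OHC-TRECK, untreated wild-type and DT-treated wild-type cochleae, beside 0.00, -0.03 and 0.01 over all probes compared. *Junb* entered both wild-type comparisons only through the DT-treated OHC-TRECK array, where it was highest. Over the 7 genes measured on all 4 arrays, the median was 0.56, 0.41 and 0.39 in the same order. Over all probes well above background on both arrays of a pair it was -0.004, -0.016 and 0.007. Of the 7 genes measured on all 4 arrays, 5 lay above every control array and 1 below, beside 32.9% of the 23688 probes above and 35.2% below. Among the 5 is *Jun*, which lay above its nearest control by only 0.06 on the log2 scale, with an error of 0.20. Of the 23688 probes, 46.7% lay farther outside their control arrays than *Jun*. At 1.5-fold in place of 2-fold, *Fos*, *Egr1* and *Fosb* were higher than in untreated OHC-TRECK cochleae and none of the 8 genes was lower, beside 4.8% of all probes higher and 3.65% lower. *Fos* and *Egr1* were higher than in untreated wild-type cochleae and *Nr4a1* was lower, beside 4.53% higher and 5.84% lower. Against DT-treated wild-type cochleae, *Fos*, *Egr1* and *Fosb* were higher and none was lower, beside 3.95% higher and 4.4% lower.

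**Figure D4:**
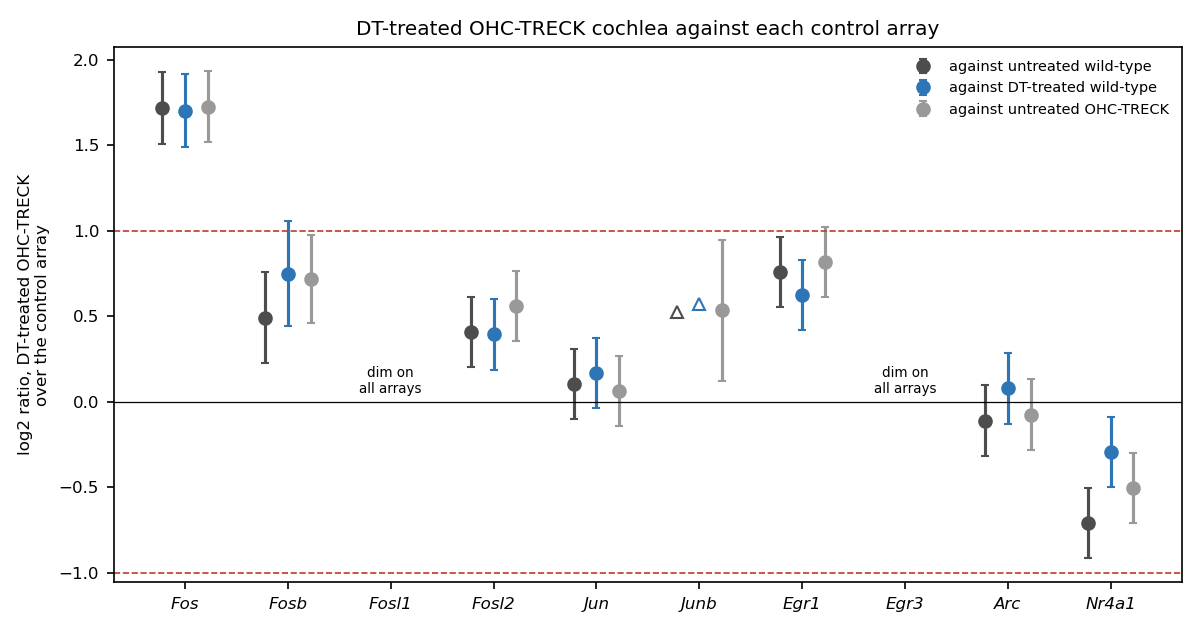
Log2 ratio of DT-treated OHC-TRECK over each of the 3 control arrays (vertical axis) for each gene, with the measurement error of the software as bars and red dashed lines at 2-fold. Open triangles without bars are ratios against a signal not well above background. The ratios of *Fos* lie between 1.70 and 1.72 and are the only ones past the upper line, while those of *Nr4a1* lie between -0.71 and -0.29.

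The effect of DT within each genotype can be set side by side, since DT-treated and untreated mice were compared in both. For *Fos* the log2 ratio of DT-treated over untreated was 0.02 in wild-type and 1.72 in OHC-TRECK mice, a difference of 1.71 ± 0.30 (measurement error). For *Egr1* the ratios were 0.13 and 0.82 (difference 0.68 ± 0.29), and for *Fosl2* 0.01 and 0.56 (0.55 ± 0.29). *Fosb* had ratios of opposite sign, -0.26 and 0.72 (0.97 ± 0.40), neither of which reached 2-fold. *Nr4a1* was lower after DT in both genotypes, by -0.42 in wild-type and by -0.50 in OHC-TRECK mice, which differed by less than the error (-0.09 ± 0.29). *Arc* (-0.19 and -0.08) and *Jun* (-0.07 and 0.06) had small ratios in both. With 1 array per group, none of these differences between genotypes was tested.

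The sequence upstream of the start site is shown because factors known to act on immediate early genes bind there. RefSeq windows of 250 bases before the start (GRCm38.p6, a different build from the mm9 positions of the probes) were read for 6 of the 10 genes (*Fos*, *Fosb*, *Fosl2*, *Jun*, *Junb* and *Nr4a1*), and those of *Egr1*, *Egr3*, *Arc* and *Fosl1* are not analysed here. The windows of 4 are shown, *Fos*, *Fosb* and *Fosl2* among the genes above all controls and *Nr4a1* as the gene below. The window of *Jun*, which also lay above all controls but within the measurement error, is not shown. They lie at chr12:85473640-85473889 (plus strand), chr7:19310046-19310295 (minus strand), chr5:32136222-32136471 (plus strand) and chr15:101266596-101266845 (plus strand). Capitals mark 3 motifs searched on both strands, namely TGACG (the core of the cAMP response element, CGTCA on the other strand), GCGGGGGCG (a binding sequence of EGR1, CGCCCCCGC on the other strand) and TATAAA (the TATA box, TTTATA on the other strand).

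Fos: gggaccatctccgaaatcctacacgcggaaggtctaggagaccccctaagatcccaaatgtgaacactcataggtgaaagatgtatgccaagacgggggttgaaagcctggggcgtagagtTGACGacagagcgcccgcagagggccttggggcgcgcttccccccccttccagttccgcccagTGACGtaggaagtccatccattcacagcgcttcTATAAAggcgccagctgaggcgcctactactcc
Fosb: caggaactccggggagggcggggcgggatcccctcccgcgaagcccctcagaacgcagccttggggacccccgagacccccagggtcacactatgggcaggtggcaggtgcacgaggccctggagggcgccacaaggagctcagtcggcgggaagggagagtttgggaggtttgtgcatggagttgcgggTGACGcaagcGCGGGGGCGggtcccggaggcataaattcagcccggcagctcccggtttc
Fosl2: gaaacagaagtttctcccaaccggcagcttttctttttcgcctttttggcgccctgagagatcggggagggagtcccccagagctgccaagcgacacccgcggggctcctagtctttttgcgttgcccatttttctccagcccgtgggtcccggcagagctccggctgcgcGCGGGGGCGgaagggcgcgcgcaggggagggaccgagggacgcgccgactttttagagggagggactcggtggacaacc
Nr4a1: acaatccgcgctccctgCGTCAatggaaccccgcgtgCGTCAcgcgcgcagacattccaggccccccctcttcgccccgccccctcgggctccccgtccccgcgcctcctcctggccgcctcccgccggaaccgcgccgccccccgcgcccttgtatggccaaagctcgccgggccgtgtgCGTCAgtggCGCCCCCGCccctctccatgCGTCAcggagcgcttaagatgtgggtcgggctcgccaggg

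The *Fos* window held TGACG at 129 to 125 and at 66 to 62 bases before the start and TATAAA at 33 to 28 bases. *Fosb* held TGACG at 60 to 56 bases and, next to it, GCGGGGGCG at 50 to 42 bases, and *Fosl2* held GCGGGGGCG alone, at 79 to 71 bases. *Nr4a1* held CGTCA 4 times, at 233 to 229, 213 to 209, 69 to 65 and 40 to 36 bases, and CGCCCCCGC at 60 to 52 bases. Of the windows not shown, that of *Junb* held TGACG at 106 to 102 bases. That of *Jun*, a gene also above all controls, held none of the motifs, whereas each window shown holds at least 1. Among all 32851 promoter windows of this length, 17.8% held TGACG, 2.57% held GCGGGGGCG and 12.4% held TATAAA. The CArG box bound by SRF (1.47% of all windows), the full cAMP response element TGACGTCA (1.55%), which contains TGACG, the AP-1 site TGAGTCA (4.46%) and the other EGR sequence GCGTGGGCG (0.536%) were found in none of the 6 windows. A match describes these letters only and a motif not found is absent from these 250 bases only. TGACG was in the window of *Fos*, the gene with the highest ratio, and in that of *Nr4a1*, the gene with the lowest.

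The genes whose 4 levels most resembled those of *Fos*, by the Euclidean distance of log2 levels centred on their mean over the 4 arrays, were *Ly6g6c* (0.126), *Dmrtc1c2* (0.133) and *Dnah14* (0.134), among 18249 gene names with a probe well above background on all 4 arrays. *Ly6g6c* had levels of -1.45, -1.42, -1.42 and 0.14. *Dmrtc1c2* had -5.03, -5.15, -5.03 and -3.28, and *Dnah14* had -4.51, -4.52, -4.62 and -2.96. All 3 share with *Fos* flat control arrays and a high DT-treated OHC-TRECK array, and 1 further probe without a gene name was as near.

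Other proteins that pair with FOS and JUN were described from a list of 10 genes, all well above background on all 4 arrays. *Atf3*, a stress-induced factor known from injured neurons, was the one gene of the list called, with levels of -1.66, -1.21, -1.60 and 0.21, or 3.50-fold, 3.66-fold and 2.67-fold against untreated OHC-TRECK, untreated wild-type and DT-treated wild-type cochleae. Its control arrays spanned 0.46, with DT-treated wild-type the highest. The small MAF genes *Maff* (log2 0.44, 0.52 and 0.41 in the same order) and *Mafk* (0.43, 0.49 and 0.25) lay above all controls below 2-fold, and *Mafg* (-0.10, -0.09 and -0.16) lay below. *Jund*, the most broadly expressed JUN gene, differed by 0.17, 0.14 and 0.08, and *Batf2* by 0.32, 0.07 and 0.25. *Jdp2*, a repressor of AP-1, had -0.25, -0.24 and -0.21, and *Atf2* (-0.14, -0.07 and -0.15), *Batf* (-0.04, -0.29 and -0.20) and *Batf3* (-0.05, -0.12 and -0.02) also had ratios below 0. In all, 5 of the 10 lay above every control array and 5 below, beside 32.9% and 35.2% of all probes, and the median log2 ratio was 0.07, 0.00 and 0.03. The call of *Atf3* against each control array stands beside 1.08% of probes called higher.

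The measured relatives of the EGR and NR4A genes differed from the controls by less than 2-fold. Of the 6 genes, *Egr4* and *Nr4a3* were well above background on no array. None of the other 4 was called, beside 1.08% of probes called higher against every control array and 0.259% lower. Of these 4 genes, 3 lay above every control array and 0 below, beside 32.9% and 35.2% of all probes. *Egr2*, which directs myelination in Schwann cells, had levels of 2.36, 2.10, 2.23 and 2.31, inside the control range. *Nr4a2* had log2 ratios of 0.24, 0.24 and 0.27 against untreated OHC-TRECK, untreated wild-type and DT-treated wild-type cochleae, in contrast to the ratios below 0 of *Nr4a1*. *Nab1* (0.13, 0.31 and 0.20) and *Nab2* (0.17, 0.15 and 0.28), the corepressors that EGR proteins bind, also lay above every control array.

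In a wider list of 28 other immediate early genes, 3 were called higher against every control array and none lower, beside 1.08% and 0.259% of probes. *Myc*, a growth-related factor, had levels of -3.08, -3.12, -3.34 and -2.05, or 2.44-fold, 2.05-fold and 2.10-fold against untreated OHC-TRECK, untreated wild-type and DT-treated wild-type cochleae. *Gadd45a*, a stress and DNA damage response gene, had -1.13, -1.02, -1.11 and 0.04, or 2.22-fold, 2.25-fold and 2.09-fold. *Socs3*, the feedback inhibitor of STAT3 signalling, had -0.36, -0.39, -0.38 and 0.72, or 2.15-fold, 2.12-fold and 2.16-fold, with a control range of 0.025 on the log2 scale. Of the 27 genes well above background on all 4 arrays, 18 lay above every control array and 6 below, beside 32.9% and 35.2% of all probes, and the median log2 ratio of the list was 0.25, 0.22 and 0.20. *Nfkbiz*, an inducible regulator of NF-κB, differed between control arrays, at -4.22, -3.79 and -4.99, and was at -4.04 in DT-treated OHC-TRECK cochleae.

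Upstream of these genes, a list of 13 kinases and factors (SRF, its ELK partners, CREB and the MAP kinases) had no gene called. Among all probes, 1.08% were called higher against every control array and 0.259% lower. In this list 2 genes lay above every control array and 8 below, beside 32.9% and 35.2% of all probes. The median log2 ratio was -0.06, -0.17 and -0.09 in the order used above. Of 7 dual-specificity phosphatases and Sprouty genes, which shut off MAP kinase signalling, 6 were measured. Of these, 3 lay above every control array, none by 2-fold, and 1 lay below, beside the same shares of all probes. *Dusp2* and *Spry4* differed between control arrays instead. *Dusp2* was at -3.44, -2.32, -3.73 and -3.15, and *Spry4* at -4.91, -2.88, -4.18 and -4.80. Both were highest in DT-treated wild-type cochleae, in which the *Fos* level was that of the other controls. Heat shock genes, which also respond to tissue stress, had no gene called among the 5 measured of 6, beside the same 1.08% and 0.259%. Of these 5, 0 lay above every control array and 2 below, beside 32.9% and 35.2% of all probes.

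A list of 13 known targets of AP-1 and EGR1 held 12 genes well above background on at least 1 array. *Timp1*, an inhibitor of matrix metalloproteinases, had levels of -0.65, -0.82, -0.89 and 1.21, or 4.30-fold, 3.64-fold and 4.10-fold against untreated OHC-TRECK, untreated wild-type and DT-treated wild-type cochleae. *Ccl2*, the chemokine that draws in monocytes, had -3.37, -3.79, -3.86 and -1.64, or 4.67-fold, 3.31-fold and 4.45-fold. These were the 2 genes called higher against every control array, beside 1.08% of probes. Of the 7 genes measured on all 4 arrays, 5 lay above every control and 1 below, beside 32.9% and 35.2% of all probes. *Mmp13*, a collagenase of bone and cartilage, went the other way and already differed among the controls, at -2.42, -3.89 and -4.50, and was not well above background in DT-treated OHC-TRECK cochleae. Its signal there was lower by at least 1.93-fold, 8.12-fold and 2.93-fold than in untreated OHC-TRECK, untreated wild-type and DT-treated wild-type cochleae.

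**Figure D5:**
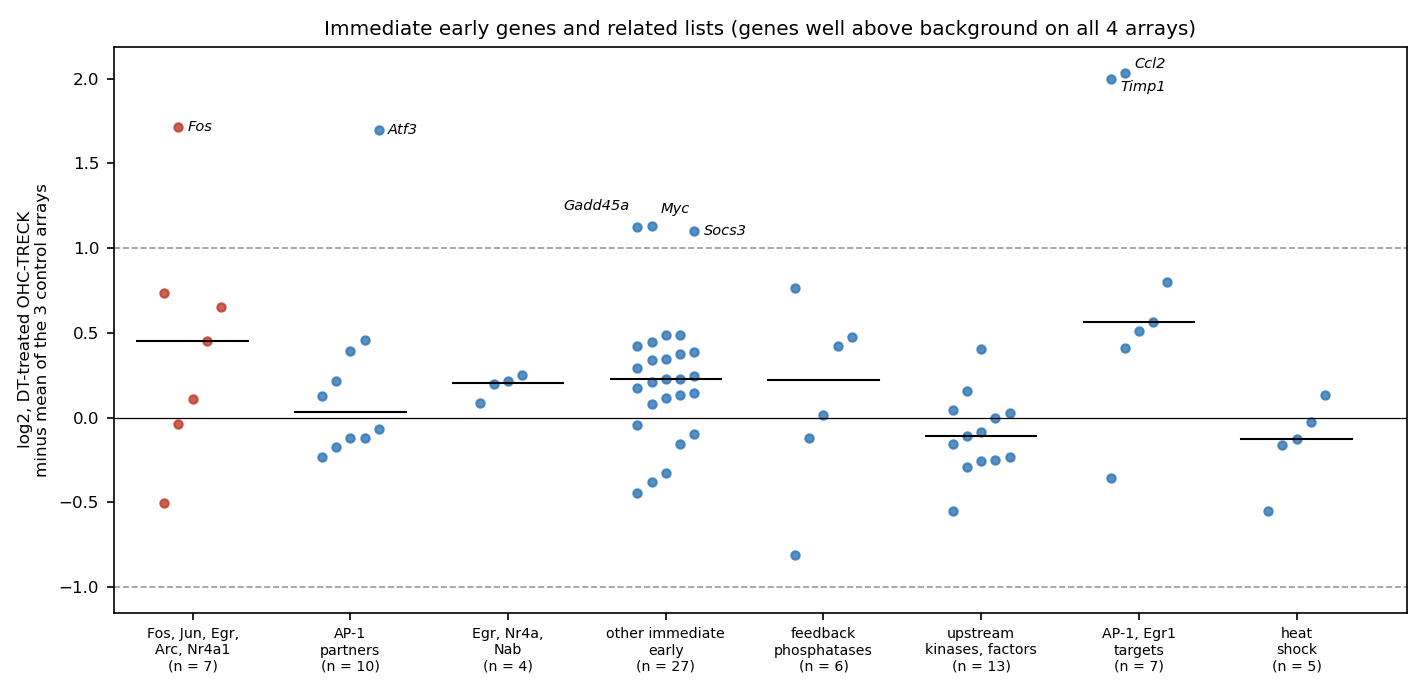
DT-treated OHC-TRECK signal minus the mean of the 3 control arrays (vertical axis, log2) for each gene well above background on all 4 arrays, for the immediate early genes and the 7 lists of pathway genes (the cell type markers are not drawn), with the median of a list as a black line and 2-fold as dashed lines. The genes drawn past 2-fold on this scale are *Fos*, *Atf3*, *Gadd45a*, *Myc*, *Socs3*, *Ccl2* and *Timp1*.

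Markers of several cell types differed between the same arrays as *Fos*. All 14 macrophage markers were well above background on all 4 arrays. In DT-treated OHC-TRECK cochleae 13 of them lay above every control array and 1, *Itgam*, below, beside 32.9% and 35.2% of all probes. Against each control array 5 were called higher, beside 1.08% of probes. Their summed relative signal was 28.7, 25.7 and 23.2 on the control arrays and 37.6 on the DT-treated OHC-TRECK array. Of the 7 OHC markers, 4 were called lower against every control array, beside 0.259% of probes, and *Slc26a5* was no longer well above background. Of 10 neuron markers, 7 lay below every control array and 1 above, beside 35.2% and 32.9% of all probes, and none was called. Their summed relative signal was 164, 139 and 151 on the control arrays and 132 on the DT-treated OHC-TRECK array. Blood cell markers differed among the control arrays. The 10 neutrophil markers summed to 38.7, 60.9 and 14.0 on the control arrays and 24.0 on the DT-treated OHC-TRECK array. The 9 erythroid markers summed to 62.6, 79.9, 74.5 and 81.5, mostly from the bright *Hba-a1*. Their median log2 ratio was 2.27 for DT-treated over untreated wild-type cochleae. For DT-treated OHC-TRECK it was 0.58, 0.56 and -1.30 against untreated OHC-TRECK, untreated wild-type and DT-treated wild-type cochleae. The part of these cell types in the levels of the immediate early genes was not tested.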

How the data were processed

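Cochlear RNA of 4 groups was measured, with 1 Cy3-labelled Agilent array per group, and groups were taken from the sample labels. The authors deposited scanner output of Feature Extraction 11.5.1.1 (scan resolution 5 μm, probe positions in mm9). Its intensity is linear, with background subtracted and no scaling between arrays. A further table deposited by the authors gives that intensity over a constant for each array, which lay within 0.045% of the 75th percentile of the non-control spots, a ratio that is neither log2 nor centred. The mean and background signal per spot, deposited as intensity, served 1 alternative.

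Of 44397 spots per array, 1377 controls and the 149 to 228 outlier spots were dropped. The mean over a probe's spots was taken, then divided by the 75th percentile over the probes of the array and put on the log2 scale. The methods of the paper name a 75th percentile shift and a baseline step to the median of the samples, a step that leaves ratios between arrays as they are and was not applied. Log2 ratios and folds were computed from these values. A probe took a flag carried by a share above 0.5 of its spots. A probe entered a pair when well above background on at least 1 of its arrays, and a signal not well above background was raised to the lowest normalized signal called so on that array (-6.39 to -5.44), unless its own was higher. A gene was represented by its brightest such probe. Spots of probes printed repeatedly had a median SD of 0.061 to 0.071, and having 1 array per group limits the precision.

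The genes named are those chosen, the genes of the lists of AP-1 partners and of EGR and NR4A relatives, genes of the other pathway lists called against every control array or, measured on both, between control arrays, markers of cell types only where a result turns on them, and the 3 genes nearest to a chosen gene that spans 2-fold. The members and lists were chosen with earlier results of these data known. The tried alternatives are given at the end. Scripts were tested on simulated data and ran in R 4.3.3 (limma 3.58.1) and in Python 3.11.15 (matplotlib 3.10.9, numpy 2.4.6 and pandas 2.3.3).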

Additional observations from a re-analysis of the deposited data

Results flagged for a closer look

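For *Fosb* and *Jun*, the single DT-treated and untreated arrays differed in opposite directions in the 2 genotypes. The log2 ratio of *Fosb* was -0.26 in wild-type and 0.72 in OHC-TRECK mice, a difference of 0.97 ± 0.40 (measurement error). That of *Jun* was -0.07 and 0.06, a difference of 0.13 ± 0.29, which is smaller than its measurement error. Neither difference was tested, since each group has 1 array.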

How the results depend on the processing

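No paired analysis was possible because each group has 1 array, so no array could be left out either. The ratios of the genes were computed again with other floors and filters on dim probes, normexp background correction, median or quantile scaling, the deposited value table, the mean over a gene's probes, and outlier spots kept. Over these 9 alternatives, all 419 ratios moved by less than their measurement error, and 0 called ratios changed sign. The settings of floor and filter and the mean over probes cannot alter the ratios of the 7 genes measured on all 4 arrays. Their share of the 419 was therefore fixed in advance and says nothing on how stable these ratios are. The log2 ratio of *Fos* ranged from 1.55 to 1.74 against untreated OHC-TRECK, from 1.51 to 1.78 against untreated wild-type and from 1.51 to 1.73 against DT-treated wild-type cochleae. Of 114 counts and medians over the genes, 107 stayed near their values and 7 moved. With normexp, the median log2 ratio of DT-treated OHC-TRECK was 0.44 against untreated OHC-TRECK, 0.27 against untreated wild-type and 0.35 against DT-treated wild-type cochleae. Without a filter on dim probes, the median against DT-treated wild-type was 0.28 over all 10 genes, beside 0.035 over all probes. Against untreated wild-type the median was 0.48 over the genes and 0.11 over all probes. At 1.5-fold, the count of genes was 3 in each of these 3 comparisons, all higher except for *Nr4a1*, which was lower against untreated wild-type, beside 4.8%, 4.53% and 3.95% of all probes higher and 3.65%, 5.84% and 4.4% lower against untreated OHC-TRECK, untreated wild-type and DT-treated wild-type cochleae. The cause of the shifts with normexp was not tested. Dim probes limit the account of *Fosl1*, *Egr3* and *Junb*, whose signals lay at or under the limit of detection on some or all arrays.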
